A study of Arabidopsis thaliana with 24 samples.

Results

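The data are the shoot transcriptomes of Arabidopsis thaliana grown with added salt, compared between neo-tetraploid plants, which carry 4 copies of each chromosome, and the diploids they derive from. The libraries were chosen by their labels (shoot, Na, 35 mM NaCl). These are 3 neo-tetraploid and 3 diploid libraries, 6 of the 24 libraries in the series. The remaining 18 libraries hold the same ploidies without added NaCl and the roots of both treatments. Both ploidies are Columbia-0 (Col-0) wild type, the neo-tetraploids come from lines made in an earlier study, and all plants were grown for 2 weeks on agar-solidified Hoagland's medium with sucrose, so the groups compared shared genotype, medium and age and differed in ploidy and line. Each library holds the pooled shoots of plants from one experiment, so the p-values below measure the spread between pools and not between plants or independent tetraploid lines. A ploidy effect and a property of the line used cannot be told apart.

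Whole-genome duplication enlarges plant cells and is known in Arabidopsis for a change in leaf potassium and in the response to salt. In salt-grown leaves, abscisic acid (ABA) is the main hormone of water shortage. It is bound by PYR/PYL receptors, which then inhibit protein phosphatases of type 2C, and kinases freed from these phosphatases act on transcription factors that bind G-box and ABRE elements in promoters. Jasmonate and salicylic acid are the hormones of defence against chewing insects and against biotrophic pathogens, and xyloglucan endotransglucosylases (XTHs) cut and rejoin cell wall xyloglucan during growth and after touch.

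For each gene the deposited expected counts were used, with genes absent from a file set to 0. The counts of the 6 libraries summed to between 11278640 and 11746918. In all, 25023 genes were listed in at least one shoot library, and the 19174 that reached 10 counts in 3 or more of the 12 shoot libraries were tested. Levels are given as CPM, the usual depth-scaled count unit, with library sizes scaled by the TMM factors of edgeR, and a log2 fold change is that of neo-tetraploid over diploid NaCl shoots. The label was in accord with the markers measured. The FPKM of 10 leaf markers summed to between 39630 and 43930 in neo-tetraploid NaCl shoots and between 40140 and 48450 in diploid NaCl shoots, against 161.3 to 321.3 in the NaCl roots. The 17 root markers summed to between 190.5 and 235.4 in neo-tetraploid NaCl shoots and between 163.7 and 261.0 in diploid NaCl shoots, against 5110 to 7636 in the NaCl roots, and COBL9, RHD6 and PLT1 among them had at most 3 counts in every one of the 6 libraries.

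Libraries with the same replicate number resembled each other. Both NaCl libraries of replicate 2 stood apart from the other 10 shoot libraries on the first principal component, which held 34.96% of the variance, with scores of 78.2 for the neo-tetraploid and 54.4 for the diploid library, where the other 10 lay between -51.3 and 18.1. Both NaCl libraries of replicate 3 stood apart on the second component (18.04%), with scores of -43.8 for the neo-tetraploid and -51.9 for the diploid library. The replicate number was used as a block, as laid down for this comparison, so that a ploidy difference is judged within same-numbered pairs.

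Of the 19174 genes, 3 (0.0156%) were differentially expressed genes (DEGs), which are defined as an adjusted p under 0.05 in edgeR's quasi-likelihood test with the block and a fold change of at least 2. Of these, 2 were higher (0.0104%) and 1 was lower (0.00522%) in neo-tetraploids. Without adjustment, 1627 genes (8.49%) had a p under 0.05. Most differences were small. The median log2 fold change of all genes tested was 0.0041, its 5th and 95th percentiles were -0.50 and 0.52, and 205 genes were at least 2-fold higher and 149 at least 2-fold lower in neo-tetraploids.

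The DEG with the largest difference was AT3G01345, which RefSeq lists as an uncharacterized protein. It had 4, 4 and 23 counts in the 3 neo-tetraploid NaCl shoots, against 1093, 727 and 1370 counts in the 3 diploid NaCl shoots. In CPM these are 0.337, 0.354 and 1.801 CPM in neo-tetraploids, against 103, 68.8 and 115 CPM in diploids, and the log2 fold change was -6.82 (SE 0.38, adjusted p = 0.000737). Every neo-tetraploid library was far below every diploid one, and the same was seen in the control shoots and the NaCl roots. Control shoots had 3, 1 and 1 counts in neo-tetraploids against 1973, 1950 and 2262 counts in diploids, and NaCl roots had 0, 0 and 2 counts in neo-tetraploids against 1612, 1998 and 2194 counts in diploids.

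QQS (AT3G30720), an Arabidopsis-specific gene that affects starch content and whose expression varies between lines with the DNA methylation of its promoter region, rose in neo-tetraploids. Its level was 5.31, 4.96 and 6.42 CPM in neo-tetraploid NaCl shoots, against 1.51, 0.852 and 1.09 CPM in diploid NaCl shoots, and the log2 fold change was 2.26 (SE 0.25, adjusted p = 0.0446). The groups did not overlap, although the underlying counts were low, with 63, 56 and 82 in neo-tetraploids and 16, 9 and 13 in diploids. The control shoots gave 4.90, 5.90 and 7.44 CPM in neo-tetraploid control shoots, against 0.774, 1.23 and 1.12 CPM in diploid control shoots, a log2 fold change of 2.53 (SE 0.25, adjusted p = 0.0266). The difference in QQS was thus present with and without NaCl.

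ESM1 (AT3G14210), the epithiospecifier modifier, steers the breakdown of glucosinolates towards isothiocyanates, which deter insects. It had 548, 568 and 681 CPM in neo-tetraploid NaCl shoots, against 164, 228 and 227 CPM in diploid NaCl shoots. The lowest neo-tetraploid library was above the highest diploid one by more than the spread within either group, and the log2 fold change was 1.55 (SE 0.14, adjusted p = 0.0138). Its FPKM averaged 418.3 ± 76.7 in neo-tetraploids and 134.5 ± 28.3 in diploids (SD, n = 3 each). In control shoots it had a log2 fold change of 0.88 (SE 0.14, adjusted p = 0.123), which did not pass the test, and in NaCl roots it had only 9, 8 and 18 counts in neo-tetraploids and 4, 6 and 2 counts in diploids.

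All 3 of these genes lie on chromosome 3. When single libraries of the 6 were left out, AT3G01345 remained a DEG in 6 of 6 fits, while ESM1 and QQS each passed in 1 of 6. The adjusted p of ESM1 then lay between 0.0491 and 0.193 and passed only without diploid replicate 2, and that of QQS lay between 0.0422 and 0.359 and passed only without diploid replicate 1.

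**Figure D1:**
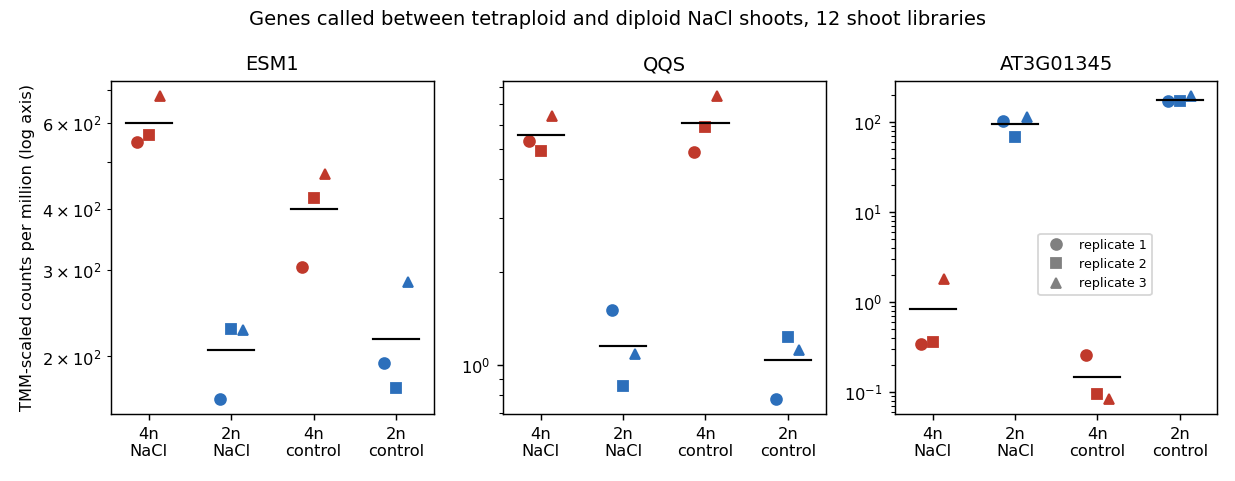
TMM-scaled CPM (log axes) of the 3 genes called between neo-tetraploid (4n) and diploid (2n) NaCl shoots, in the 12 shoot libraries. Symbols are replicate numbers and bars are group means. In all 3 panels the neo-tetraploid and diploid NaCl shoots do not overlap, and AT3G01345 is at or below 1.801 CPM in every neo-tetraploid NaCl shoot.

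The 250 bases before the RefSeq start of these genes (assembly TAIR10.1, plus strand) are shown as reference sequence. No promoter was compared between the ploidies. They were searched, as the other promoters below, for the W-box (TTGACC or TTGACT), the G-box (CACGTG), the ABRE (ACGTGTC), the DRE (GCCGAC), the evening element (AAAATATCT), the GCC box (GCCGCC) and the heat element, on both strands. The G-box and the ABRE share the letters ACGTG, so their matches can overlap. Matches are printed in capitals, and these 3 windows held none.
AT3G01345 (chr3:128888-129137): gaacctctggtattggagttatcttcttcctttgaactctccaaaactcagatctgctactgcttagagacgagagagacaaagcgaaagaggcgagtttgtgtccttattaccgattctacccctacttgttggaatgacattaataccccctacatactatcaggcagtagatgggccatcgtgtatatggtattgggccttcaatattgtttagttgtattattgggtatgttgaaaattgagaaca
QQS (chr3:12348797-12349046): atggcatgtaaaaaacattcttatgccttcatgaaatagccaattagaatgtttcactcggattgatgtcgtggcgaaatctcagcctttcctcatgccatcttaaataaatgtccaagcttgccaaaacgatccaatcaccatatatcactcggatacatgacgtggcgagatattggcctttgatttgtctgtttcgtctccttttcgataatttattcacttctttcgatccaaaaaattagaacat
ESM1 (chr3:4729149-4729398): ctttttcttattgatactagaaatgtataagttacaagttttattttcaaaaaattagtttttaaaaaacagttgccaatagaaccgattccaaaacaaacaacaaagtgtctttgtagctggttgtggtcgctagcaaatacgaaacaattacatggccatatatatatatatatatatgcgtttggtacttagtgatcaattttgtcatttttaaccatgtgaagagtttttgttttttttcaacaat

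Restricting the model to the 6 NaCl shoot libraries, again with the block, gave 106 DEGs among the 18548 genes that reached the same count minimum (0.571%). Of these, 63 were higher (0.340%) and 43 lower (0.232%) in neo-tetraploids. The estimate of the spread then came from the NaCl shoots alone. Without the block the same 6 libraries gave 0 DEGs in edgeR, with 493 genes at an unadjusted p under 0.05 (2.66%). The 106 genes had the same sign in the 12-library model in 106 cases and a fold change of at least 2 there in 104. Each of the 106 moved the same way in 3 of 3 same-numbered pairs. Of all genes tested, 19.6% were higher and 20.4% lower in 3 of 3 pairs. The 106 were called from these same libraries and pairs. Their agreement with the 12-library model and within pairs therefore largely follows from the selection and is no independent support. The same holds for the share of them without overlap, given next. The ranges of the neo-tetraploids and the diploids did not overlap for 19 of the 63 higher and 13 of the 43 lower genes, beside 8.29% of all genes tested (4.04% higher, 4.25% lower). For the others the ploidy difference was seen within pairs only, since levels varied more between replicate numbers than between ploidies. Leaving out replicate 1 gave 28 DEGs, of which 14 were among the 106, leaving out replicate 2 gave 70 with 52 among the 106, and leaving out replicate 3 gave 121 with 54 among the 106. The gene groups below are described from both models. For lists given without their own share, 0.906% of all genes passed on the adjusted p alone and were higher, and 1.17% were lower. "Passed" refers to the 6-library model unless the 12-library model is named, where ESM1, QQS and AT3G01345 were the only DEGs.

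Of the 34 ABA genes of the list, all tested, most had higher values in neo-tetraploid NaCl shoots, and 9 passed. Their median log2 fold change was 0.55 in the 12-library model, and 29 of 34 were above 0 (50.8% of all genes were). In 3 of 3 pairs 21 were higher and 1 lower, beside 19.6% and 20.4% of all genes. In the 6-library model 3 were DEGs, all higher, and 9 passed on the adjusted p alone, all higher, beside 0.906% of all genes. In the 6-library model without replicate 2 the median was 0.43 and 27 of the 33 then tested were above 0.

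RD20, a calcium-binding caleosin used as a marker of drought and ABA, had 29.7, 619 and 56.9 CPM in neo-tetraploid NaCl shoots, against 14.1, 232 and 28.6 CPM in diploid NaCl shoots. Replicate 2 was far above the others in both ploidies, and within each pair the neo-tetraploid was higher, with a log2 fold change of 1.18 (SE 0.10, adjusted p = 0.00391) in the 6-library model. HAI1, a phosphatase of type 2C induced by ABA, had 22.1, 239.5 and 77.6 CPM in neo-tetraploids, against 11.9, 124 and 33.2 CPM in diploids, and rose by a log2 fold change of 1.03 (SE 0.09, adjusted p = 0.00391). RD29A, a hydrophilic protein induced by cold, drought and salt, had 531, 3733 and 714 CPM in neo-tetraploids, against 266, 1343 and 387 CPM in diploids. Its log2 fold change was 1.12 (SE 0.12, adjusted p = 0.0105), and here too replicate 2 had the highest level in both ploidies.

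The other members that passed were the phosphatases ABI1 (log2 fold change 0.67, adjusted p = 0.0102) and ABI2 (0.60, adjusted p = 0.0494), the homeobox factors HB-7 (0.56, adjusted p = 0.0198) and HB-12 (0.62, adjusted p = 0.0159), and the dehydrins COR47 (0.48, adjusted p = 0.0356) and ERD10 (0.81, adjusted p = 0.00801). These are signalling phosphatases, transcription factors and protective proteins. Synthesis genes did not pass. NCED3, the dioxygenase that opens ABA synthesis under stress, had 113, 234 and 132 CPM in neo-tetraploids, against 69.4, 228 and 81.9 CPM in diploids (log2 fold change 0.48, adjusted p = 0.177), and ABA1, the zeaxanthin epoxidase, had 291, 359.8 and 86.9 CPM in neo-tetraploids, against 431, 406 and 122.8 CPM in diploids (-0.41, adjusted p = 0.0757).

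Of the genes outside the list, the ABA receptors PYL4 and PYL5 fell. PYL4 had 12.5, 1.95 and 3.92 CPM in neo-tetraploid NaCl shoots, against 25.3, 3.41 and 13.2 CPM in diploid NaCl shoots and a log2 fold change of -1.23 (SE 0.19, adjusted p = 0.0233). PYL5 had 5.22, 0.885 and 1.25 CPM in neo-tetraploids, against 12.6, 2.37 and 5.78 CPM in diploids and a log2 fold change of -1.56 (SE 0.23, adjusted p = 0.0195). In both genes the order of the replicate numbers was the same in neo-tetraploids and diploids, with replicate 1 highest and replicate 2 lowest. ARCK1, a receptor-like cytosolic kinase induced by ABA and osmotic stress, had 6.07, 11.1 and 2.82 CPM in neo-tetraploids, against 2.07, 2.75 and 1.42 CPM in diploids, with groups that did not overlap and a log2 fold change of 1.60 (SE 0.23, adjusted p = 0.018). The NAC factor NAC019 had 7.33, 169 and 4.54 CPM in neo-tetraploids, against 1.51, 40.2 and 2.26 CPM in diploids (1.91 (SE 0.20, adjusted p = 0.0132)), and the ERF factor RAP2.6 had 0.842, 48.0 and 0.940 CPM in neo-tetraploids, against 0.188, 10.7 and 0.251 CPM in diploids (2.14 (SE 0.18, adjusted p = 0.00391)). Both were high in replicate 2 of both ploidies. In the 12-library model the log2 fold change of RAP2.6 was 1.96. It was -0.0071 when the neo-tetraploid library of replicate 2 alone was left out, which keeps the high diploid library of that number, and 2.14 when replicate 2 was left out of every group.

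The promoter windows of 3 of these higher genes are shown because they hold a G-box or an ABRE. RD20 and NAC019 lie on the minus strand, and each sequence reads 5′ to 3′ on the strand of its gene. In the RAP2.6 and NAC019 windows the G-box and an ABRE overlap and form 1 run of capitals, and RAP2.6 has a second ABRE. The first match in RD20 is a W-box on the opposite strand.
RD20 (chr2:14146556-14146805): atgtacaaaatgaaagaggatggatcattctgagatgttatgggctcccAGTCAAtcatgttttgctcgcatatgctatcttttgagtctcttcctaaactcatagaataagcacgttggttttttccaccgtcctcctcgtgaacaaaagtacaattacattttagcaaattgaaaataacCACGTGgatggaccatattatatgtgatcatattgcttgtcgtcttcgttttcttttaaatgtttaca
RAP2.6 (chr1:16263555-16263804): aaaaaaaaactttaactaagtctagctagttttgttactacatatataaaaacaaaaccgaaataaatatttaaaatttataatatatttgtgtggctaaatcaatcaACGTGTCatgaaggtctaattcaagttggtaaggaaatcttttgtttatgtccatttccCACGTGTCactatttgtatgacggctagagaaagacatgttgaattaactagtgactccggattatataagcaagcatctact
NAC019 (chr1:19698483-19698732): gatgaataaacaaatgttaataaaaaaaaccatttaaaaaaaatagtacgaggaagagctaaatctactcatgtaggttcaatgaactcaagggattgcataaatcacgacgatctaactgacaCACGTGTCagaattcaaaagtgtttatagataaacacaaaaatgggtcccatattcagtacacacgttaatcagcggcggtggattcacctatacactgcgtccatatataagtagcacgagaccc

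The jasmonate list likewise lay mostly above 0. Of the 29 tested (32 listed), 26 were above 0 with a median log2 fold change of 0.53. In 3 of 3 pairs 15 were higher and 0 lower, beside 19.6% and 20.4% of all genes. In the 6-library model 2 were DEGs and 5 passed on the adjusted p alone, all higher, beside 0.340% and 0.906% of all genes. TAT3, a tyrosine aminotransferase induced by jasmonate, had 12.9, 102 and 5.403 CPM in neo-tetraploid NaCl shoots, against 1.23, 7.86 and 0.503 CPM in diploid NaCl shoots. The ratio of neo-tetraploid to diploid was 10.5, 13.0 and 10.8 in the pairs of replicates 1, 2 and 3, and its log2 fold change of 3.602 (SE 0.14, adjusted p = 0.000133) was the largest positive one among the 106. AOC1, an allene oxide cyclase of jasmonate synthesis, had 137, 436 and 75.1 CPM in neo-tetraploids, against 55.1, 196 and 40.9 CPM in diploids and a log2 fold change of 1.12 (SE 0.10, adjusted p = 0.00391). Also higher were AOS, the allene oxide synthase (0.54, adjusted p = 0.038), OPR3, the reductase that follows the cyclase (0.54, adjusted p = 0.0359), and CYP94B3, which inactivates jasmonoyl-isoleucine (0.89, adjusted p = 0.00883). LOX2, the lipoxygenase at the start of the pathway, had 1813, 3919 and 1652 CPM in neo-tetraploids, against 998, 1408 and 1309 CPM in diploids and did not pass (0.89, adjusted p = 0.131). In the 6-library model without replicate 2 the median of the list was 0.35, with 25 of the 27 then tested above 0.

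Outside the list, TPS04 and NATA1 rose, both chosen from the called genes. TPS04, the geranyllinalool synthase of a volatile homoterpene, had 2.70, 56.8 and 3.45 CPM in neo-tetraploids, against 0.377, 12.02 and 1.00 CPM in diploids and a log2 fold change of 2.21 (SE 0.17, adjusted p = 0.00368). NATA1, an acetyltransferase that forms acetylornithine, had 1.35, 13.5 and 1.49 CPM in neo-tetraploids, against 0.377, 2.65 and 0.586 CPM in diploids and 2.07 (SE 0.28, adjusted p = 0.0144). In both, replicate 2 was highest and the groups overlapped, so the difference lay within the pairs.

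**Figure D2:**
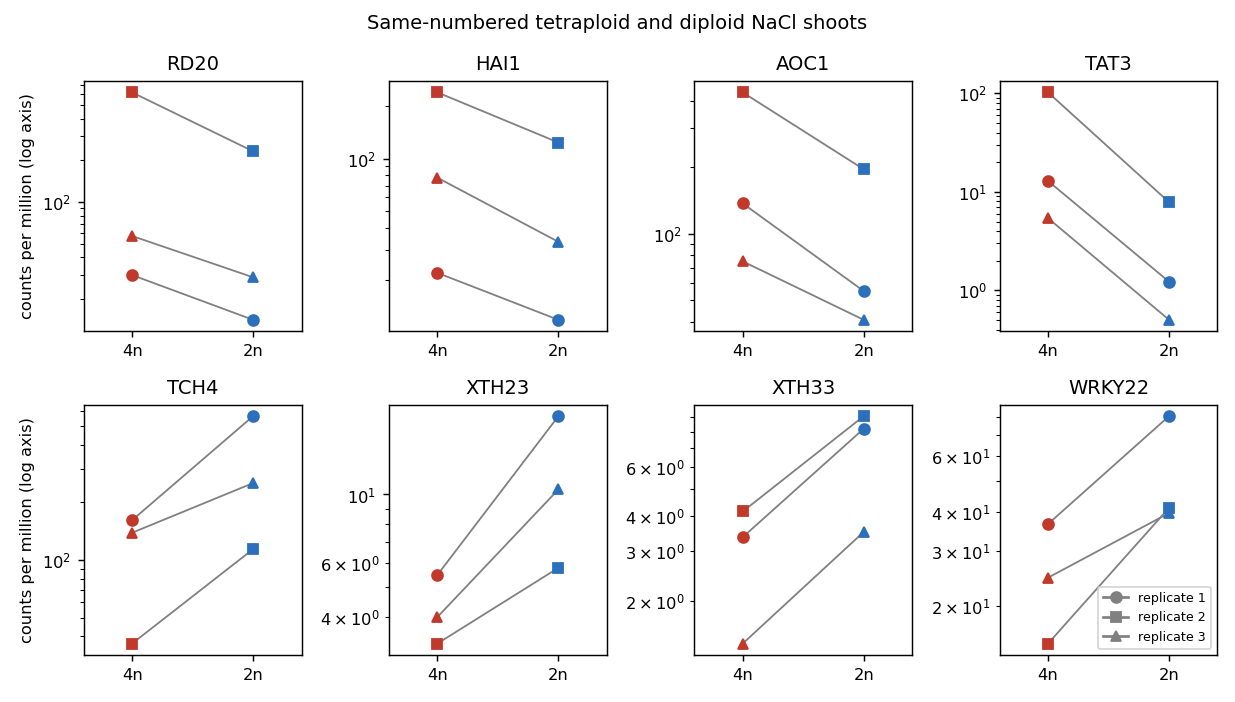
CPM (log axes) of 8 genes in the 3 neo-tetraploid (4n, left) and 3 diploid (2n, right) NaCl shoots, with lines joining libraries of the same replicate number. RD20, HAI1, AOC1 and TAT3 are higher and TCH4, XTH23, XTH33 and WRKY22 lower in the neo-tetraploid of all 3 pairs, while replicate numbers differ widely in level.

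Salicylic acid and defence genes had a median log2 fold change of 0.45 over 24 tested members, 21 of them above 0. In 3 of 3 pairs 11 were higher and 0 lower, beside 19.6% and 20.4% of all genes. DMR6, a hydroxylase of salicylic acid, had 19.2, 25.4 and 11.04 CPM in neo-tetraploid NaCl shoots, against 8.76, 12.4 and 3.94 CPM in diploid NaCl shoots and a log2 fold change of 1.19 (SE 0.13, adjusted p = 0.00887). BGL2, the glucanase also called PR2, had 15.2, 7.87 and 3.602 CPM in neo-tetraploids, against 8.48, 2.56 and 1.00 CPM in diploids (1.27 (SE 0.22, adjusted p = 0.0323)). These 2 were the only members that passed, both higher, beside 0.906% of all genes. PR1, FMO1, ALD1 and NIMIN1 had too few counts to be tested. PR1 had 5, 1 and 3 counts in neo-tetraploids and 0, 2 and 0 in diploids. ACD6, an ankyrin-repeat regulator of defence, had 36.1, 48.7 and 66.2 CPM in neo-tetraploids, against 19.4, 12.8 and 13.3 CPM in diploids, groups that did not overlap, and a log2 fold change of 1.72 with an adjusted p of 0.0581.

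PCC1, a small membrane protein controlled by pathogens and the circadian clock, had 65.7, 27.8 and 75.5 CPM in neo-tetraploid NaCl shoots, against 17.1, 2.46 and 3.94 CPM in diploid NaCl shoots. Every neo-tetraploid library was above every diploid one, and the log2 fold change was 3.04 (SE 0.45, adjusted p = 0.0477). Its neighbour AT3G22235 had 39.6, 14.8 and 46.5 CPM in neo-tetraploids, against 13.3, 3.88 and 7.54 CPM in diploids (2.04 (SE 0.21, adjusted p = 0.0138)). The sequences before the starts of PCC1 and AT3G22235 share a long stretch. Whether reads were shared between these neighbours by the counting was not examined. LURP1, a gene required for resistance to an oomycete, had 28.6, 3.80 and 11.6 CPM in neo-tetraploids, against 7.91, 0.662 and 1.00 CPM in diploids (2.37 (SE 0.30, adjusted p = 0.0226)). Its replicate 2 was the lowest in both ploidies, unlike in TAT3 and AOC1.

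Several receptor and channel genes, picked from the called genes and not from a list, rose. The receptor-like proteins RLP32 (log2 fold change 1.06, adjusted p = 0.0165), RLP33 (1.81, adjusted p = 0.00391), RLP34 (1.37, adjusted p = 0.0102) and RLP37 (1.12, adjusted p = 0.0144) rose. RLP34 had 15.8, 14.8 and 15.0 CPM in neo-tetraploid NaCl shoots, against 5.18, 7.48 and 5.11 CPM in diploid NaCl shoots, without overlap. The cyclic nucleotide-gated channels CNGC3 and CNGC11, adjacent genes on chromosome 2, rose together. CNGC3 had 11.4, 22.7 and 10.1 CPM in neo-tetraploids, against 6.12, 7.29 and 3.94 CPM in diploids (1.32 (SE 0.17, adjusted p = 0.013)), and CNGC11 had 10.02, 10.4 and 7.20 CPM in neo-tetraploids, against 5.84, 3.597 and 3.099 CPM in diploids (1.16 (SE 0.18, adjusted p = 0.0247)). Neither pair of groups overlapped. RLP and CNGC genes sit among close copies, so reads of 50 bases may in part have been shared between them by the counting.

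Receptor-like kinases among the higher DEGs were the cysteine-rich CRK6 with 2.61, 5.04 and 3.84 CPM in neo-tetraploids, against 1.32, 1.32 and 1.17 CPM in diploids (1.57 (SE 0.26, adjusted p = 0.0313)), AT1G35710 with 68.3, 47.7 and 41.1 CPM in neo-tetraploids, against 26.2, 19.4 and 10.9 CPM in diploids (1.52 (SE 0.13, adjusted p = 0.00391)) and AT5G59670 with 2.53, 1.06 and 1.96 CPM in neo-tetraploids, against 0.659, 0.284 and 0.754 CPM in diploids (1.68 (SE 0.33, adjusted p = 0.0498)). In all 3 the neo-tetraploids and diploids did not overlap. The intracellular receptors of the NLR class did not move as a list, with 17 tested, a median of 0.0082 and 0 passing.

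Of the 12 ER body genes tested, BGLU18 and TSA1 passed, and the median log2 fold change was 0.17. ER bodies are stores of beta-glucosidase in the endoplasmic reticulum of Brassicaceae. BGLU18, a beta-glucosidase that releases ABA from its glucose ester and accumulates in leaf ER bodies, had 936, 958 and 1064 CPM in neo-tetraploid NaCl shoots, against 362, 311 and 580.3 CPM in diploid NaCl shoots. Its neighbour TSA1, a protein related to the ER body factor NAI2, had 172, 368 and 159 CPM in neo-tetraploids, against 65.2, 87.9 and 76.0 CPM in diploids. MBP1, a myrosinase-binding protein, had 228, 311 and 241 CPM in neo-tetraploids, against 62.6, 61.3 and 116 CPM in diploids. None of the 3 showed overlap between groups, and their log2 fold changes were 1.29 (SE 0.15, adjusted p = 0.0159), 1.51 (SE 0.20, adjusted p = 0.037) and 1.75 (SE 0.25, adjusted p = 0.0462). AT1G52000, which lies near MBP1, had 299, 648 and 262 CPM in neo-tetraploids, against 89.9, 152 and 155 CPM in diploids and did not pass (1.53, adjusted p = 0.0643).

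The promoter of MBP1 is given for its G-box. The gene lies on the minus strand.
MBP1 (chr1:19352792-19353041): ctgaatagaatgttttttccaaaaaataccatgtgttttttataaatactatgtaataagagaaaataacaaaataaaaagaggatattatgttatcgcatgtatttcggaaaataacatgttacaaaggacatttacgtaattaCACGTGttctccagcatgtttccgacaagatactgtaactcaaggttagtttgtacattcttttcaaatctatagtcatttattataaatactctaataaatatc

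While ESM1 and MBP1, which act when glucosinolates are broken down, rose, the synthesis genes of aliphatic glucosinolates were on the lower side without passing. Of 13 tested, 1 was above 0 and the median was -0.28. In 3 of 3 pairs 0 were higher and 7 lower, beside 19.6% and 20.4% of all genes. MAM1, the methylthioalkylmalate synthase of side-chain elongation, had 409.8, 403 and 286 CPM in neo-tetraploid NaCl shoots, against 581, 479.8 and 475 CPM in diploid NaCl shoots and a log2 fold change of -0.49 (SE 0.10, adjusted p = 0.0559). BCAT3, an aminotransferase of the same step, had 102, 108 and 91.8 CPM in neo-tetraploids, against 136, 128 and 118 CPM in diploids (-0.34 (SE 0.08, adjusted p = 0.0693)). Neither gene's groups overlapped. Indole glucosinolate genes had a median of 0.15 over 13 tested, and 2 passed on the adjusted p alone, both higher, beside 0.906% of all genes. They were the regulator MYB34 (0.53, adjusted p = 0.0313) and CYP79B3 (0.42, adjusted p = 0.0436). Flavonoid and anthocyanin genes had a median of -0.35 over 16 tested with 3 above 0 and 0 passing. TT4, chalcone synthase, had 7.75, 10.4 and 3.29 CPM in neo-tetraploids, against 23.9, 10.9 and 4.86 CPM in diploids (-0.80, adjusted p = 0.297), with groups that overlapped.

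Of the listed expansins and XTHs, which loosen and remodel the cell wall, 5 fell and none rose. Of the 24 tested, 5 were above 0, and the median log2 fold change was -0.22. In 3 of 3 pairs 0 were higher and 10 lower, beside 19.6% and 20.4% of all genes. In the 6-library model 3 were DEGs and 5 passed on the adjusted p alone, all lower, beside 1.17% of all genes. Without replicate 2 the 6-library model gave 1 DEG of this list, with 9 of 24 above 0 and a median of -0.22. TCH4, the touch-inducible XTH22, had 162, 36.5 and 139 CPM in neo-tetraploid NaCl shoots, against 566, 114 and 253 CPM in diploid NaCl shoots. It was lower in each pair, with overlapping groups and a log2 fold change of -1.43 (SE 0.20, adjusted p = 0.0427). XTH23 had 5.48, 3.27 and 3.99 CPM in neo-tetraploids, against 18.0, 5.77 and 10.4 CPM in diploids without overlap (-1.36 (SE 0.19, adjusted p = 0.0159)), and XTH33 had 3.37, 4.16 and 1.41 CPM in neo-tetraploids, against 8.20, 9.09 and 3.52 CPM in diploids (-1.22 (SE 0.17, adjusted p = 0.0162)). XTH7 (-0.71, adjusted p = 0.0102) and XTH24 (-0.49, adjusted p = 0.0477) fell by less than 2-fold. The expansin EXPA16, which was not in the list, went the other way. It was a higher DEG with overlapping groups (1.28 (SE 0.19, adjusted p = 0.0453)).

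Among other called genes that fell, LRX3, a leucine-rich repeat extensin of the cell wall, had 81.1, 23.4 and 50.04 CPM in neo-tetraploid NaCl shoots, against 203, 54.2 and 136 CPM in diploid NaCl shoots and a log2 fold change of -1.33 (SE 0.08, adjusted p = 0.00145). EXO, a brassinosteroid-responsive secreted protein, had 33.7, 9.91 and 31.6 CPM in neo-tetraploids, against 82.4, 22.1 and 112 CPM in diploids (-1.45 (SE 0.14, adjusted p = 0.00838)), and its relative PHI-1 had 21.3, 3.98 and 9.40 CPM in neo-tetraploids, against 105, 10.2 and 52.3 CPM in diploids (-2.17 (SE 0.19, adjusted p = 0.0102)). In these 3 genes replicate 2 was the lowest in both ploidies, and the groups overlapped. The transcription factors DREB26 with 3.88, 1.24 and 3.29 CPM in neo-tetraploids, against 18.1, 2.08 and 10.6 CPM in diploids (-1.78 (SE 0.24, adjusted p = 0.0162)) and WRKY22 with 36.6, 15.2 and 24.7 CPM in neo-tetraploids, against 80.6, 41.2 and 39.6 CPM in diploids (-1.07 (SE 0.14, adjusted p = 0.0186)) also fell, and for WRKY22 the groups did not overlap. LTP4, a lipid transfer protein, had 4.21, 6.46 and 3.92 CPM in neo-tetraploids, against 9.04, 15.1 and 10.13 CPM in diploids (-1.23 (SE 0.14, adjusted p = 0.0102)), again without overlap.

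The list of rapid stress genes, the ERF, ZAT and touch genes that respond within minutes of handling, had the lowest median of the lists named here, -0.60 over 25 tested, with 4 above 0. The order was less regular than for the walls. In 3 of 3 pairs 0 were higher and 6 lower (24%), beside 19.6% and 20.4% of all genes. TCH4 was the only member that passed. ZAT12, a zinc finger factor of oxidative stress, had 13.7, 9.29 and 11.9 CPM in neo-tetraploid NaCl shoots, against 36.5, 12.2 and 14.7 CPM in diploid NaCl shoots (-0.74, adjusted p = 0.206). SZF1, a salt-inducible zinc finger protein, had 292, 89.7 and 315 CPM in neo-tetraploids, against 765, 249.9 and 299.6 CPM in diploids (-0.93, adjusted p = 0.238), where replicate 3 went the other way. The WRKY list, with WRKY22 as its only passing member, had a median of 0.0051 over 21 tested.

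**Figure D3:**
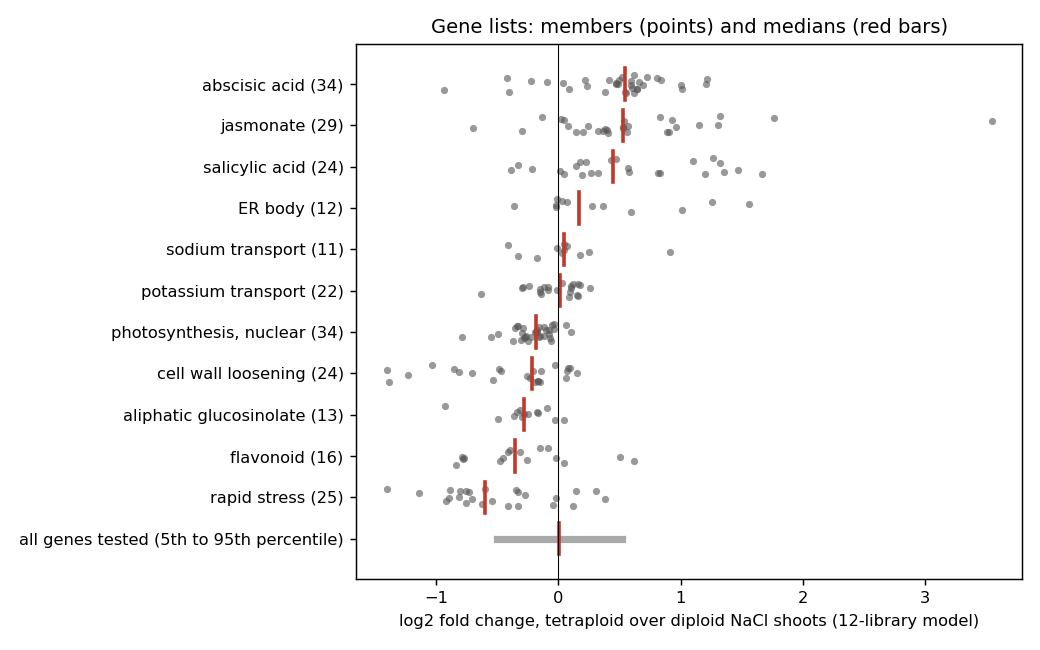
Log2 fold change of neo-tetraploid over diploid NaCl shoots in the 12-library model for 11 gene lists (members tested in brackets), with each point a gene and each red bar the median of its list. The grey bar spans the 5th to 95th percentile of all 19174 genes, -0.50 to 0.52. Medians run from 0.55 for abscisic acid to -0.60 for rapid stress genes, and those of sodium and potassium transport lie at 0.05 and 0.01.

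Of 34 nuclear photosynthesis genes tested, 2 were above 0 and the median log2 fold change was -0.18. In 3 of 3 pairs 24 were lower and 1 higher, beside 20.4% and 19.6% of all genes. With scaling by library size alone, which raised the median of all genes to 0.098, the median of the list was -0.086 with 9 above 0. On the adjusted p alone 2 passed, both lower and both light-harvesting proteins, beside 1.17% of all genes. CAB2 had 5320.0, 3588 and 1125 CPM in neo-tetraploid NaCl shoots, against 8040.0, 5549 and 2657 CPM in diploid NaCl shoots (-0.82 (SE 0.14, adjusted p = 0.0462)), and LHCB2.2 had 2305, 2265 and 481 CPM in neo-tetraploids, against 3481, 2971 and 671 CPM in diploids (-0.49 (SE 0.08, adjusted p = 0.0265)). Replicate 3 had the lowest level of both in each ploidy. In whole shoots, fewer cells of a type and less RNA per cell cannot be told apart. Markers of ageing leaves were measured beside them. The 11 senescence genes had an FPKM sum of between 229.7 and 258.1 in neo-tetraploids and between 190.3 and 206.1 in diploids (exact permutation test, two-sided, p = 0.1, the smallest that 3 against 3 allows). Of these, 1 passed, the NAC factor ORE1 with 4.04, 5.49 and 2.58 CPM in neo-tetraploids, against 1.79, 1.89 and 1.00 CPM in diploids (1.36 (SE 0.22, adjusted p = 0.0289)), and SAG12 was at 3 counts or fewer in all 6 libraries. The part of senescence in the photosynthesis values was not tested.

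The share of counts from the chloroplast genome was lower in neo-tetraploid NaCl shoots. It was 3.24, 4.34 and 4.35% in neo-tetraploids, against 4.85, 6.34 and 6.19% in diploids. The groups did not overlap, and the means of 3.98% ± 0.64 and 5.80% ± 0.82 (SD, n = 3 each) gave p = 0.1 in the two-sided exact permutation test, the smallest p possible. In control shoots the means were 4.97% in neo-tetraploids and 5.23% in diploids (exact permutation test, p = 0.8). Shares of rRNA genes were 2.75% ± 0.43 in neo-tetraploid and 3.59% ± 0.54 in diploid NaCl shoots (SD, n = 3 each, exact permutation test without pairing, p = 0.2). Within pairs the rRNA share was 2.37, 3.21 and 2.67% in neo-tetraploids, against 2.99, 4.01 and 3.78% in diploids, lower in 3 of 3. The 10 most counted genes took 12.4% ± 0.71 in neo-tetraploids and 15.0% ± 0.93 in diploids (exact permutation test, p = 0.1). The RNA was selected by its poly(A) tails, which most chloroplast RNAs and rRNAs lack. The part of these shares in the differences between genes was not tested. Left out of the table before scaling, rRNA and organelle genes changed no call, with 3 DEGs as before.

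Among the 71 chloroplast genes tested, the median was -0.04 in TMM-scaled values and 0.048 with library-size scaling, so no direction is given for them. ATCG00960.1 and ATCG01170.1, which have the same counts in every NaCl shoot and are copies in the inverted repeat, had 6.91, 8.67 and 10.5 CPM in neo-tetraploid NaCl shoots, against 16.6, 18.7 and 17.59 CPM in diploid NaCl shoots (-1.02 (SE 0.13, adjusted p = 0.0144)). Both are counted among the 106, so 1 sequence enters there as 2 genes. Whether they encode rRNA was not examined. AT2G01021, a short gene at the start of chromosome 2, had 253, 246 and 274 CPM in neo-tetraploids, against 649.8, 541 and 507 CPM in diploids (-1.12 (SE 0.10, adjusted p = 0.00409)). Whether this gene overlaps rRNA sequence, so that its counts hold rRNA reads, was not examined. The rRNA share given above was on the lower side in the same libraries, and its part in these values was not tested.

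**Figure D4:**
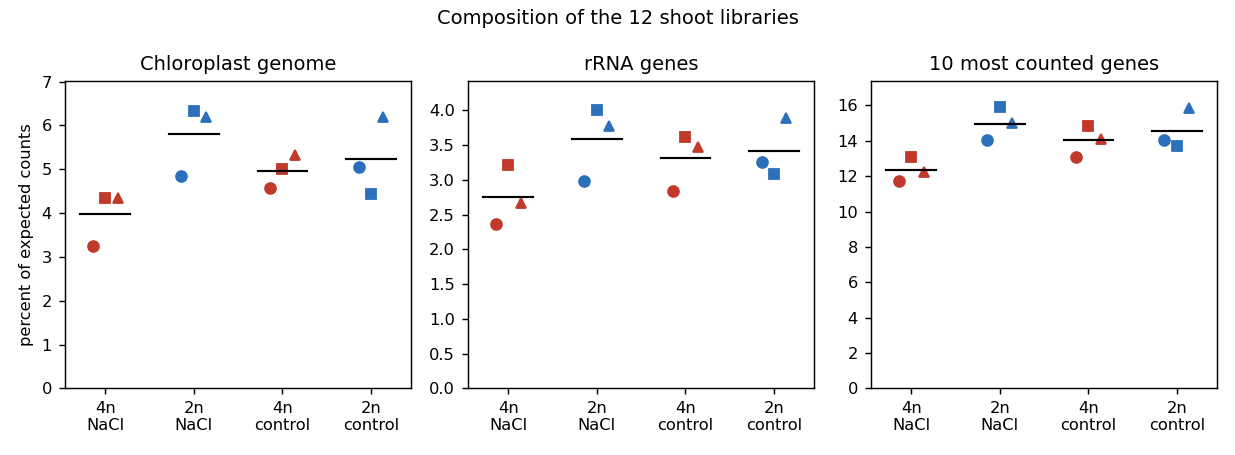
Percent of expected counts from the chloroplast genome, from rRNA genes and from the 10 most counted genes in the 12 shoot libraries, with circles, squares and triangles for replicates 1, 2 and 3 and bars for group means. Neo-tetraploid (4n) and diploid (2n) NaCl shoots separate in the chloroplast share (3.24 to 4.35% and 4.85 to 6.34%) and in the share of the 10 most counted genes, whereas the control shoots overlap in all panels.

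Few ion transport genes passed in salt-grown shoots. Of 11 sodium transport genes tested the median log2 fold change was 0.05, and of 22 potassium transport genes 0.01, with 0 DEGs in either. SOS1, the plasma membrane sodium exporter, had 18.4, 23.3 and 20.6 CPM in neo-tetraploid NaCl shoots, against 18.4, 21.6 and 20.9 CPM in diploid NaCl shoots (0.03, adjusted p = 0.898). NHX1, the vacuolar exchanger, had 46.0, 48.1 and 74.5 CPM in neo-tetraploids, against 41.6, 43.4 and 63.2 CPM in diploids (0.18, adjusted p = 0.28). HKT1, which retrieves sodium from the xylem, had 1.94, 1.77 and 1.49 CPM in neo-tetraploids, against 0.471, 1.42 and 0.921 CPM in diploids, with groups that did not overlap at a low level (0.90, adjusted p = 0.264). AVP1, the vacuolar proton pump that energizes these exchangers, had 413, 295 and 441 CPM in neo-tetraploids, against 576, 391 and 561 CPM in diploids and was the only one that passed on the adjusted p alone (-0.41 (SE 0.08, adjusted p = 0.0427)). KAT3, a silent subunit of potassium channels, had 4.89, 3.19 and 5.48 CPM in neo-tetraploids, against 5.84, 5.96 and 9.38 CPM in diploids (-0.64, adjusted p = 0.123). Of the aquaporins, 3 passed on the adjusted p alone and were lower, beside 1.17% of all genes. They were PIP1C (-0.44, adjusted p = 0.033), PIP2;7 (-0.45, adjusted p = 0.0359) and DELTA-TIP (-0.46, adjusted p = 0.0356). The median of the 17 tested was -0.07 and turned to 0.021 with library-size scaling.

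Of the 11 genes that the study examined for root potassium, 8 could be tested in shoots and 0 passed in either model. HAK5, the high-affinity potassium transporter, had 3, 0 and 1 counts in neo-tetraploids and 0, 1 and 0 counts in diploids, too few for a comparison. RAP2.11, a regulator of HAK5, had 5, 2 and 1 counts in neo-tetraploids and 1, 0 and 2 in diploids, and the Casparian strip regulator MYB36 had 9, 6 and 5 counts in neo-tetraploids and 6, 0 and 7 in diploids. AKT1, the inward potassium channel, had 15.2, 22.2 and 14.2 CPM in neo-tetraploid NaCl shoots, against 13.5, 21.6 and 13.2 CPM in diploid NaCl shoots (0.11, adjusted p = 0.648). Its kinase CIPK23 had a log2 fold change of 0.15 (adjusted p = 0.497), and the calcium sensors CBL1 and CBL9 had 0.29 (adjusted p = 0.613) and 0.34 (adjusted p = 0.221). MBF1C, a coactivator of the heat response, had 0.40 (adjusted p = 0.197), the glucosinolate regulator MYB51 -0.15 (adjusted p = 0.763), ESB1, a dirigent-like protein of the Casparian strip, -0.24 (adjusted p = 0.498), and the calcium sensor SOS3 0.01 (adjusted p = 0.987).

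In the remaining lists few genes passed. Of 15 genes for DNA methylation and its reporter loci, QQS was the only DEG, and the demethylase ROS1 passed on the adjusted p alone, with 104, 87.9 and 83.8 CPM in neo-tetraploid NaCl shoots, against 69.3, 61.1 and 62.8 CPM in diploid NaCl shoots and a log2 fold change of 0.51 (SE 0.08, adjusted p = 0.022) without overlap. MET1, the maintenance methyltransferase, had 47.3, 44.3 and 60.5 CPM in neo-tetraploids, against 68.3, 51.4 and 64.0 CPM in diploids (-0.27, adjusted p = 0.215). PAP17, an acid phosphatase induced by phosphate shortage and senescence, was the only one of 14 phosphate genes that passed (1.01 (SE 0.15, adjusted p = 0.0214)). The heat shock, proline, chloride, nitrate, iron, clock, dark and sugar, cell cycle, auxin and floral lists had 0 DEGs in both models. The marker lists of trichomes and stomata, vessels and phloem, and flowers and seeds also had 0, with FPKM sums of 49.6 to 59.9 in neo-tetraploids and 45.8 to 64.6 in diploids for the first, 148.8 to 175.8 and 156.8 to 164.9 for the second, and 4.43 to 28.4 and 5.18 to 17.3 for the third, in the same order of ploidies. Clock genes depend on the hour of harvest. Of the 21 tested, 17 were above 0 (50.8% of all genes were), with a median of 0.14. In 3 of 3 pairs 4 were higher and 3 lower, beside 19.6% and 20.4% of all genes. LHY, a morning factor, went against most of the list. It had 1.77, 0.796 and 0.0783 CPM in neo-tetraploids, against 3.297, 1.51 and 0.251 CPM in diploids, a spread between replicate numbers that exceeded the difference between ploidies in each. Outside the lists, HSFA6A, a heat shock factor induced by salt and ABA, had 2.95, 5.66 and 6.58 CPM in neo-tetraploids, against 0.659, 2.56 and 3.02 CPM in diploids and rose (1.32 (SE 0.24, adjusted p = 0.037)). AT2G25510 had 198, 78.2 and 78.9 CPM in neo-tetraploids, against 64.9, 25.6 and 19.4 CPM in diploids (1.75 (SE 0.10, adjusted p = 0.00145)), and the noncoding RNA AT1G67105.1 had 2.19, 1.42 and 3.29 CPM in neo-tetraploids, against 0.377, 0.568 and 0.586 CPM in diploids (2.15 (SE 0.36, adjusted p = 0.0306)). AT5G12960 was at the floor in neo-tetraploids, with 1, 1 and 2 counts against 23, 23 and 80 counts in diploids, which is at least 14.2-fold lower when 3 counts per library are taken as the floor. Like AT3G01345 it was also near 0 in neo-tetraploid control shoots, with 0, 1 and 0 counts against 50, 52 and 31 in diploids. Its NaCl roots differed less, with 6, 8 and 14 counts in neo-tetraploids and 24, 37 and 22 counts in diploids.

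Whether the ploidy difference depended on salt was examined with the control shoots, which share no library with the NaCl shoots. With a block within each treatment, a model chosen after seeing the data, 61 of the 63 higher genes were also above 0 in control shoots, beside 49.8% of all genes, and 43 were at least 2-fold higher there, beside 3.43% of all genes. Their median log2 fold change in control shoots was 1.49, and 18 of them were DEGs there, beside 1.68% of all genes. With the block shared by both treatments, 62 of the 63 were above 0 in control shoots, but only 1 of the 63 higher (0.00522% of all genes were called in that direction) and 1 of the 43 lower genes (0.00522%) were DEGs there. Of the 43 lower genes, 29 were below 0 in control shoots, beside 50.2% of all genes, 7 were at least 2-fold lower, beside 0.511% of all genes, and 7 were DEGs there, beside 0.193% of all genes, with a median of -0.19. Without neo-tetraploid control replicate 1, which stood apart from the other libraries of its group on the first principal component (-38.8, against 8.7 and 4.4), 60 of the 63 were above 0 and 46 at least 2-fold higher, and 23 of the 43 were below 0 and 7 at least 2-fold lower. In NaCl roots the medians of the 63 and of the 43 genes were 0.099 and 0.14.

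**Figure D5:**
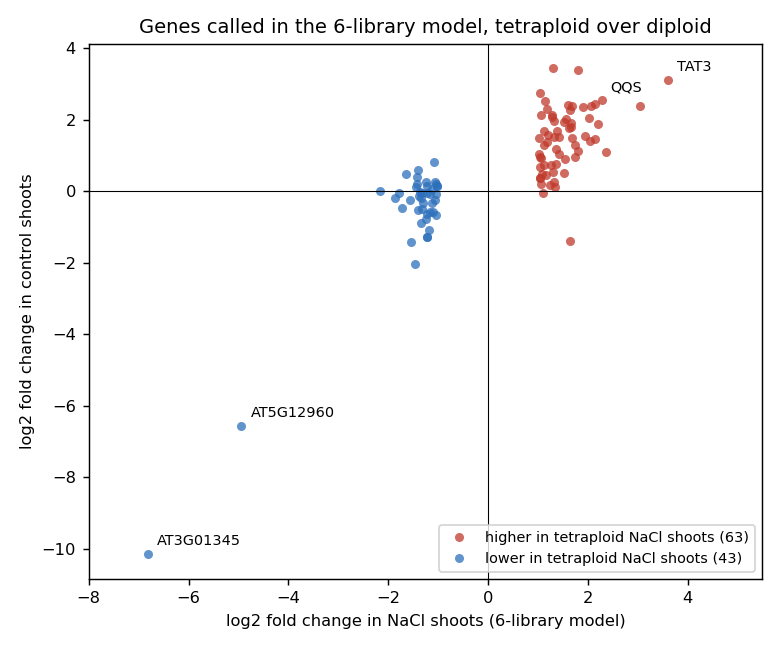
Log2 fold change of neo-tetraploid over diploid in NaCl shoots (x axis, 6-library model) and in control shoots (y axis, block within each treatment) for the 106 genes called in the 6-library model. The 63 higher genes (red) lie mostly above 0 in control shoots (61 of 63, median 1.49), and the 43 lower genes (blue) are spread around 0 (29 below 0, median -0.19).

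The difference itself was tested as the interaction of ploidy and NaCl. It gave 0 genes in edgeR with the block shared by both treatments (928 at an unadjusted p under 0.05, 4.84%), 2 in DESeq2 (0.0104%), and 53 (0.276%) with a block within each treatment, of which 5 were higher (0.0261%) and 48 lower (0.250%) under NaCl. Among these were genes lower in the neo-tetraploid NaCl shoots. WRKY22 had 29.6, 59.4 and 37.2 CPM in neo-tetraploid control shoots, against 20.8, 27.7 and 21.6 CPM in diploid control shoots, so that in control shoots the neo-tetraploid was the higher one in each pair, and its interaction was -1.88 (SE 0.21, adjusted p = 0.0131). LRX3 had 58.4, 62.8 and 61.5 CPM in neo-tetraploid control shoots, against 56.6, 54.8 and 82.4 CPM in diploid control shoots, with an interaction of -1.27 (SE 0.16, adjusted p = 0.017). TCH4 had 149, 221 and 126 CPM in neo-tetraploid control shoots, against 135, 137 and 102 CPM in diploid control shoots, with an interaction of -1.81 (SE 0.26, adjusted p = 0.0451). AT2G01021 (-1.19 (SE 0.17, adjusted p = 0.0301)) and ATCG00960.1 (-1.17 (SE 0.18, adjusted p = 0.0331)) were also called. None of these was called with the shared block, where the lowest adjusted p among them was 0.871. For RD20 the interaction was -1.12 (SE 0.29, adjusted p = 0.182), for BGLU18 0.75 (SE 0.28, adjusted p = 0.335) and for ESM1 0.66 (SE 0.18, adjusted p = 0.174), none of which passed.

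Among the lists, the abscisic acid genes had a median of 0.54 in control shoots, close to their 0.55 in NaCl shoots, and the jasmonate genes 0.67 in control shoots against 0.53 in NaCl shoots. The salicylic acid and defence genes had 1.04 in control shoots against 0.45 in NaCl shoots. The aliphatic glucosinolate genes had -0.50 in control shoots against -0.28 in NaCl shoots. The rapid stress genes had medians of opposite sign, -0.60 in NaCl shoots and 0.47 in control shoots, and the WRKY list had 0.0051 in NaCl shoots and 0.93 in control shoots. These differences between lists were not tested.

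The ploidy difference in NaCl shoots was also compared with that in NaCl roots, in one model of all 24 libraries with 21338 genes tested. A single gene was a DEG for the difference between organs (0.00469%), with 1874 (8.78%) at an unadjusted p under 0.05. This was HIS1-3, a linker histone H1 variant induced by drought and ABA. It had 29.1, 27.2 and 58.0 CPM in neo-tetraploid NaCl shoots, against 8.01, 13.2 and 21.7 CPM in diploid NaCl shoots, a log2 fold change of 1.44 (SE 0.18, adjusted p = 0.102) in the 12-library model and of 1.43 (SE 0.15, adjusted p = 0.0102) in the 6-library model. In NaCl roots the order was the other way, with 43, 78 and 168 counts in neo-tetraploids and 113, 140 and 211 counts in diploids and a log2 fold change of -0.65 (SE 0.21, adjusted p = 0.196). The shoot difference minus the root difference was 2.09 (SE 0.29, adjusted p = 0.0187). The neo-tetraploid was higher in 3 of 3 pairs of shoots and had fewer counts in 3 of 3 pairs of roots. In control shoots its log2 fold change was 1.05 (SE 0.21, adjusted p = 0.142).

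By position, median log2 fold changes of chromosomes 1 to 5 lay between -0.02 and 0.02, and medians of 1860 windows of neighbouring tested genes (50 on each side of a central gene) lay between -0.11 and 0.11. The 106 DEGs comprised 102 protein-coding genes, 2 noncoding RNAs and 2 genes not in the RefSeq table. In 6 cases a pair of them lay within 3 genes of each other. Both members of BGLU18 and TSA1, CNGC3 and CNGC11, RLP32 and RLP33, and PCC1 and AT3G22235 were higher, AT1G13650 and PGL1 were both lower, and AT2G20870 and ERF53 went in opposite directions.

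Promoter motifs were counted in the RefSeq windows from 250 bases before to 50 bases after the start, for 63 higher and 41 lower genes and 19006 tested genes in all. The G-box was present in 9 higher genes (14.3%) and 1 lower gene (2.44%), beside 9.05% of all. The ABRE was present in 5 higher genes (7.94%) and 0 lower genes, beside 5.14%, and the DRE in 5 higher genes (7.94%) and 0 lower genes, beside 3.71%. The W-box was present in 19 higher genes (30.2%) and 18 lower genes (43.9%), beside 32.5%. Higher genes with a G-box were RAP2.6, MBP1, BGLU18, NAC019, HIS1-3, RD20, BGL2, AT4G02360 and HVA22D, and those with a DRE were ERF53, RLP33, HVA22D, RD29A and ABR1. The evening element (4.76% of higher and 2.44% of lower genes, beside 3.08%) and the GCC box (1.59% and 2.44%, beside 2.67%) were rare, and the heat element was in 0 of either. A match is a description of letters in the window and no evidence of binding.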

How the data were processed

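Shoot RNA of diploids and neo-tetraploids was enriched for poly(A) RNA and read on a BGISEQ-500. The authors mapped the reads to TAIR10 with HISAT and Bowtie2 and deposited, per gene, the RSEM expected count, without normalization, and the FPKM. Tool versions are not given in the sources used here. The deposited gene lengths and transcript names were not used. Genes missing from a file were set to 0, and 25979 of 26405 identifiers matched RefSeq's TAIR10.1 table, which was used for names, gene order and promoter sequences.

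Expected counts were rounded. Genes reaching 10 counts in 3 or more of the 12 shoot libraries were tested with edgeR 4.0.16 in R 4.3.3 (TMM, robust quasi-likelihood test, a mean per group and the replicate number as block), with Benjamini-Hochberg adjustment over all genes tested. A DEG combines an adjusted p under 0.05 with a 2-fold or larger change. The standard error is the log2 fold change divided by the square root of F. Ploidy differences in control shoots, the interaction with NaCl and, over 24 libraries, the difference from roots were fitted likewise. NaCl shoot libraries held between 11278640 and 11746918 counts, and bounds cover counting error only. The script was tested on simulated data.

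Replicate numbers come from the library labels. Deviations from the group means correlated across genes between same-numbered NaCl shoots of both ploidies (0.57 to 0.75, mean 0.65). All 18 same-numbered pairs of shoot libraries lay above 0.14. For different numbers the mean was -0.32 in NaCl shoots. Deviations within a group sum to 0, so this negative mean follows from the same-numbered values and is no separate observation. The numbers were taken to pair the libraries.

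The alternatives were no block, DESeq2 1.42.0, library-size scaling, no count filter, no fold threshold, limma 3.58.1 on log2(FPKM + 1) and log2(FPKM + 0.1) for genes reaching an FPKM of 1 in 3 libraries, rRNA and organelle genes left out, the 6 NaCl shoot libraries alone, and each library left out. A block within each treatment, variants of the 6-library model and leaving out a whole replicate number were chosen after seeing the data. The libraries and the 35 gene lists (637 of 652 names in the files) were chosen with earlier results of these data known. Named are up to 12 DEGs per direction without overlap, up to 6 DEGs per list and the genes the study examined. Since the 12-library model gave 3 DEGs, this rule was also applied to the 6-library model, and further genes were added once their values were known. The authors' own fold changes were not used.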

Additional observations from a re-analysis of the deposited data

Results flagged for a closer look

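A single result is singled out, because the effect of ploidy under NaCl differed between the organs. HIS1-3, a linker histone induced by drought and ABA, was higher in neo-tetraploid than in diploid NaCl shoots in 3 of 3 pairs and had fewer counts in neo-tetraploid than in diploid NaCl roots in 3 of 3 pairs. The shoot difference minus the root difference was 2.09 on the log2 scale (SE 0.29, edgeR adjusted p = 0.0187). It was the only gene of 21338 that passed in edgeR. The call was lost when any of 8 of the 12 NaCl libraries was left out, and without the replicate block.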

How the results depend on the processing

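The replicate block, the tool and single libraries moved the counts. In NaCl shoots the 3 DEGs of the 12-library model became 2 without the block and 54 with a block within each treatment, and the 106 of the 6-library model became 0 without it (493 genes at an unadjusted p under 0.05). In control shoots the 2 DEGs were 2 without the block and 360 with a block within each treatment, the interaction had 0 without the block and 53 within each treatment, and the single gene of shoots against roots became 0 without the block. DESeq2 gave 22 genes in NaCl shoots, 267 in control shoots, 2 for the interaction and 29 for shoots against roots. Within the 6 libraries, library-size scaling gave 115, limma 20 and DESeq2 123 genes, which shared 93, 20 and 86 with the 106. Of the 54 genes with a block within each treatment, 48 were among the 106 (88.9% of the 54, 45.3% of the 106). Library-size scaling, no count filter, both limma fits, the adjusted p alone and leaving out rRNA and organelle genes each kept 3 genes in the 12-library model.

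With each library left out, counts were 1 to 2 in NaCl shoots, 1 to 378 in control shoots (378 without neo-tetraploid control replicate 1), 0 for the interaction and 0 to 1 for shoots against roots. Leaving a replicate number out of every group gave 0 to 1 in NaCl shoots, and out of the 6-library model 28 to 121 (70 without replicate 2). The cause was not tested.

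Signs turned for genes near 0 that passed in no model, and for RAP2.6. With single libraries left out, the log2 fold change of MYB51 ran from -0.64 to 0.39, of RAP2.6 from -0.0071 (without neo-tetraploid replicate 2) to 3.79, of SOS1 from -0.00049 to 0.066, of AKT1 from -0.0026 to 0.24, of CBL1 from -0.15 to 0.56 and of SOS3 from -0.14 to 0.17. Without replicate 2 of the 6 libraries or of every group, MYB51 had 0.11 and 0.050 and SOS1 -0.0043 and -0.009688. SOS3 turned positive with library-size scaling (0.085), limma (0.058 and 0.052), no block (0.020), a block within each treatment (0.0053), the 6 libraries (0.013, with library-size scaling 0.10, limma 0.052, without the block 0.024), without replicate 1 of the 6 libraries (0.017) and without replicate 2 of them or of every group (0.17 and 0.16).

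At these depths a gene with few counts limits what can be seen. QQS rests on fewer than 100 counts per library, and HAK5, RAP2.11 and MYB36 were too low to test. With 3 libraries against 3, an unpaired exact test of a single value cannot go below p = 0.1.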
